A study of Mus musculus with 6 samples.

Results

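The regions described here are the p53 peaks that were listed after irradiation in splenic non-B cells and in no other list of the series. They were selected on measured values: a peak of the irradiated non-B cell list entered the set when its value, taken as the −log10 of its peak-calling p-value, was at least 8 and when it shared no base with any peak of the irradiated B cell list, either unirradiated (mock) list or the list from irradiated Trp53-/- spleen. Of 21400 peaks in the irradiated non-B cell list, 20430 had a value of at least 8. Of these, 17716 overlapped an irradiated B cell peak and 2714 did not. A further 45 of the 2714 overlapped a peak of another list, which left 2669 regions, or 13.1% of the peaks with a value of at least 8. They are called non-B-only peaks below.

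The study mapped p53 on chromatin by ChIP-seq in C57/Bl6 mice, with an antibody against p53, in spleen cells sorted into B cells and non-B cells. The 4 wild-type samples were Trp53+/+ B cells and Trp53+/+ non-B cells from animals aged 8 weeks, each from mock-treated mice and from mice killed 4 h after 7 Gy of whole-body irradiation. The fifth list came from unsorted spleen of Trp53-/- mice given the same irradiation, for which the labels give no age. The B cells were bound by B220 beads and the non-B cells were what the beads left behind, which in spleen include T cells, NK cells and myeloid cells, so that a peak in the non-B cells cannot be assigned to 1 cell type. Each list came from 1 library of chromatin pooled over animals, so no difference between lists has a replicate check and no test between conditions was possible. The only input library was from irradiated B cells.

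DNA damage stabilises p53, which binds DNA as a tetramer at a response element made of 2 decamers, in which the C and the G around each centre are almost invariant. In ChIP-seq p53 peaks are also seen at promoters and enhancers without a recognisable element. RUNX, TCF/LEF, ETS and GATA factors occupy enhancers of T cells. PU.1, EBF and OCT factors are better known from B cells and, for PU.1, myeloid cells.

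Sequences of single regions (mm9, plus strand) introduce the set. The first group are p53 response elements with no mismatch, found in the 600-bp windows around the midpoints of 8 non-B-only peaks. They are shown because these letters come closest to a classical p53 site, and because they differ in copy number: the first and second are single-copy sequence and the third is repeated. Capitals mark the 20 bases of the element, with 10 bases on either side.
Peak of value 12.7 on chromosome 13, no mismatch, chr13:60935252-60935271: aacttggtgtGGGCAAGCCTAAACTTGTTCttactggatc
Peak of value 9.46 near Smap1, no mismatch, chr1:23950741-23950760: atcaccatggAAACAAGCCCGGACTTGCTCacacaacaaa
Repeated element, shared by 5 of the 8 peaks with no mismatch, chr10:26647085-26647104: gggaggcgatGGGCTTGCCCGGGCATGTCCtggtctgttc

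The last of these sequences occurred, on either strand, within the windows of 5 non-B-only peaks on chromosomes 10, 16, 15, 5 and 6, whose 31-base words around the midpoint had a median of 48 to 119 copies in the genome.

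The second group are 300-base stretches around the midpoints of peaks with high values outside promoters. They are shown because most of the set has no p53 element, and the stretches other than Fyb carry a RUNX or TCF/LEF motif. They were picked and do not show how common these motifs are. Outside promoters RUNX motifs were in 28.8% of members and TCF/LEF motifs in 20.5%, within 300 bp of the midpoint. Other high peaks had neither motif in such a stretch, among them the intergenic peak of 46.0 on chromosome 6. Capitals mark RUNX (TGTGGTT) and TCF/LEF (CTTTGAA) motifs on either strand, and the Fyb stretch holds neither.
Fyb intron, value 44.6, chr15:6542636-6542935: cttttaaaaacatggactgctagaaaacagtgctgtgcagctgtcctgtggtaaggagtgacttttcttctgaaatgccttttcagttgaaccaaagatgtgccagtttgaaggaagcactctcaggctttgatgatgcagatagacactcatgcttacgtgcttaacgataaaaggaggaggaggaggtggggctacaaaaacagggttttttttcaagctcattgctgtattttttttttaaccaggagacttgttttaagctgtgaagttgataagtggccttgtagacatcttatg
Upstream of Tnfrsf14, value 43.9, chr4:154310771-154311070: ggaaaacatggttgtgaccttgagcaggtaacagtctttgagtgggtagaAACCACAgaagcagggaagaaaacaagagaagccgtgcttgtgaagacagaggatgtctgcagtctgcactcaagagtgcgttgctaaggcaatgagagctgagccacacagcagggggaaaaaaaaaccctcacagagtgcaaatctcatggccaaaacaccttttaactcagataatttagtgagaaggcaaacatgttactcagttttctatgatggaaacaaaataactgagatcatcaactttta
Intergenic, value 42.4, chr15:59964277-59964576: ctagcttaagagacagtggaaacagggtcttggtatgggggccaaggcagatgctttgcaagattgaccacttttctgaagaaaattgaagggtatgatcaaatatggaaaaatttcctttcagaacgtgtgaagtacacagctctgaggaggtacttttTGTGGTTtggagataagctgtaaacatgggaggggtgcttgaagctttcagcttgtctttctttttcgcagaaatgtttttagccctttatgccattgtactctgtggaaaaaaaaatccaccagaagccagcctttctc
Smad3 intron, value 37.9, chr9:63568706-63569005: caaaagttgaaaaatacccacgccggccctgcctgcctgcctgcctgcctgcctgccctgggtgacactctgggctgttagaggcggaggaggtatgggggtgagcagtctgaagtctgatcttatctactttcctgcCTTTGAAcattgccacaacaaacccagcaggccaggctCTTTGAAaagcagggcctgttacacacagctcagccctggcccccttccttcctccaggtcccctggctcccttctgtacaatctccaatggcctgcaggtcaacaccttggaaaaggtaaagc
Lcp2 intron, value 32.4, chr11:33964094-33964393: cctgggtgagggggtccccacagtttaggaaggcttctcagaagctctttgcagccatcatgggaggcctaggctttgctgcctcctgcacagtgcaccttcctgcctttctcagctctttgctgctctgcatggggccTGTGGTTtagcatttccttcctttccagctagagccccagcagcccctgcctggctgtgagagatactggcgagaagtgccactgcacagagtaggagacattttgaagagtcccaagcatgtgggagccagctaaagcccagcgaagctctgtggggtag
Cd28 intron, value 28.8, chr1:60815113-60815412: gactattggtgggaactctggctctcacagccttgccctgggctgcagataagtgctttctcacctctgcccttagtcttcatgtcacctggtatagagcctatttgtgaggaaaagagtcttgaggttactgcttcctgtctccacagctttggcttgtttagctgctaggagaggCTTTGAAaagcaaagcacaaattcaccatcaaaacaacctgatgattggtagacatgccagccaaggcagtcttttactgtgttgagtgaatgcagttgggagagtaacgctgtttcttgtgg
Lef1 intron, value 26.5, chr3:130860423-130860722: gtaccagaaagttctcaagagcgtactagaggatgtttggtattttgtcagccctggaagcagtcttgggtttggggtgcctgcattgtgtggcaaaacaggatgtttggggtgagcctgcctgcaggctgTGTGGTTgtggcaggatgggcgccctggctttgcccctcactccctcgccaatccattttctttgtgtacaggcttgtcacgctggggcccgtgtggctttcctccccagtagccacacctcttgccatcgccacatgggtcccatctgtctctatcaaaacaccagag

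The non-B-only peaks were mostly small peaks of their list. Their values ran from 8.10 to 46.0 with a median of 12.1, 1268 of the 2669 were under 12, 637 were 16 or over and 128 were 24 or over. The median member stood at the 22.6th percentile of the irradiated non-B cell list and the highest at the 85.1th, with 3117 peaks of the list above it and a list maximum of 621. The set therefore made up 37.7% of the list's peaks with values from 8 to 10, 21.0% of those from 12 to 16 and 1.54% of those of 24 or over. These values follow from the selection and are given as description. The members ran from 174 to 1113 bp in width, with a median of 236 bp, against 331 bp for the shared peaks, which are the 16595 peaks of the same list and value floor that overlapped an irradiated B cell peak and no mock or Trp53-/- peak. The mirror set, B-only peaks, held 5623 irradiated B cell peaks of value 8 or more that overlapped no peak of the other 4 lists, and their median width was also 236 bp.

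**Figure D1:**
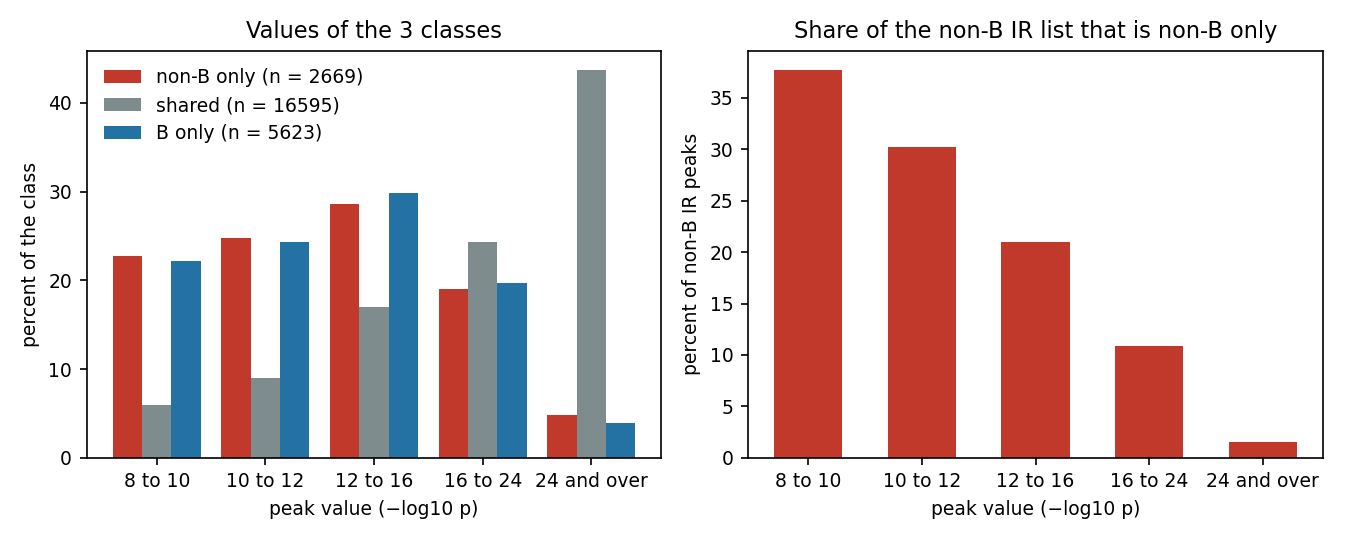
Left, percent of each class (y axis) by peak value, the −log10 of the peak-calling p-value (x axis), for the 2669 non-B-only, 16595 shared and 5623 B-only peaks. Right, percent of irradiated non-B cell peaks of each value range that were non-B-only, which fell from 37.7% at 8 to 10 to 1.54% at 24 and over.

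Just inside the floor lay an intronic peak of Mink1 and a peak at the Telo2 start, both of 8.10, and a peak beside Zfp39 of 8.13. Just outside it lay peaks in Hecw2, near Cxcr4 and in Ptprc, each of 7.99. A total of 420 peaks of lower value met the rest of the rule. Although the stated calling threshold equals 8 on this scale, the irradiated B cell list reached down to a value of 5.27, so a B cell peak below the floor of 8 still removed a non-B cell peak from the set.

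The median distance from the edge of a non-B-only peak to that of the nearest irradiated B cell peak was 10.7 kb, and a part of the set lay beside such a peak. Of the 2669 members, 250 lay within 500 bp (9.37%), 394 within 1 kb (14.8%), 2213 within 50 kb (82.9%) and 221 farther than 100 kb (8.28%). B-only peaks lay somewhat closer to irradiated non-B cell peaks, at a median of 7.31 kb. Of them 11.5% lay within 500 bp, 19.6% within 1 kb, 83.8% within 50 kb and 7.33% farther than 100 kb. The B cell peaks next to the 250 closest members had a median value of 16.2. Of these 250 B cell peaks 21 had values under 8. The member nearest to a peak of the Trp53-/- list, which is from unsorted spleen, lay 11 kb from it. That list held only 83 peaks, so the distance says little about the members. Whether reads of the B cell library fell under the non-B-only peaks below the calling threshold was not analysed here, since the lists hold called peaks alone.

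By gene position, 1266 members (47.4%) had their midpoint in an intron, 1152 (43.2%) between genes, 160 (5.99%) in a UTR, 54 (2.02%) in a coding exon and 37 (1.39%) in another exon. The promoter window, which reaches 5 kb upstream and 2 kb downstream around each annotated transcript start, held 1046 members, or 39.2% (Wilson 95% interval 37.4 to 41.1). The shared peaks stood at 51.8% (51.0 to 52.6) and the B-only peaks at 36.8% (35.5 to 38.1). All intervals here cover counting error alone. Among members the promoter share was 39.8% at values from 8 to 10, 42.9% from 10 to 12, 39.5% from 12 to 16, 36% from 16 to 24 and 28.1% (21.1 to 36.5) at 24 or over. Shared peaks stayed between 49.7% and 55.7% in these ranges and B-only peaks fell from 44.6% to 23.3%. Values of B-only peaks come from another library, so here and below the same value range need not mean equal binding. Within 250 bp of a start lay 527 members (19.7%), against 32.7% of shared and 13% of B-only peaks. The non-B-only peaks were thus less often at promoters than shared peaks in each value range, with intervals that did not overlap.

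Few non-B-only peaks had a p53 response element. With at most 3 mismatches and no spacer between the decamers, the element was found within 300 bp of the midpoint in 187 members, or 7.01% (6.10 to 8.04). The same windows moved by 10 kb gave 3.34% (2.72 to 4.09). Shared peaks gave 16.6% (16.1 to 17.2) and B-only peaks 11.2% (10.4 to 12.1), with moved windows at 3.28% and 3.54%. Outside promoters the shares were 8.01% (6.79 to 9.43) of 1623 members, 26.7% (25.7 to 27.7) of shared and 13.5% (12.5 to 14.7) of B-only peaks. At promoters they were 5.45% (4.23 to 7.00), 7.31% (6.78 to 7.88) and 7.25% (6.21 to 8.45), and the member interval overlapped both others. It also overlapped that of the members' moved windows, 3.73% (2.74 to 5.06).

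Among members the element share was 4.77% (3.34 to 6.77) at values from 8 to 10, 7.88% (6.06 to 10.2) from 10 to 12, 6.94% (5.34 to 8.96) from 12 to 16, 9.04% (6.84 to 11.8) from 16 to 24 and 5.47% (2.67 to 10.9) at 24 or over, where the moved windows gave 4.69%. The range from 16 to 24 stood above that from 8 to 10 with intervals that did not overlap, and the wide interval of the top range overlapped all others. At 24 or over the element was in 23.5% (22.6 to 24.5) of shared and 19.3% (14.6 to 25) of B-only peaks. The top range of the shared peaks reaches far above the highest member. With shared peaks limited to values of at least 24 and no higher than the highest member, 14.4% (13.5 to 15.5) of 4771 had the element. Of the 128 strongest non-B-only peaks 7 thus had the element, against 6 of their moved windows, too few to tell apart. With at most 2 mismatches there were 4 against 1. With at most 4 mismatches there were 20 (15.6%, 10.3 to 22.9) against 12 (9.38%, 5.44 to 15.7), with intervals that overlapped.

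**Figure D2:**
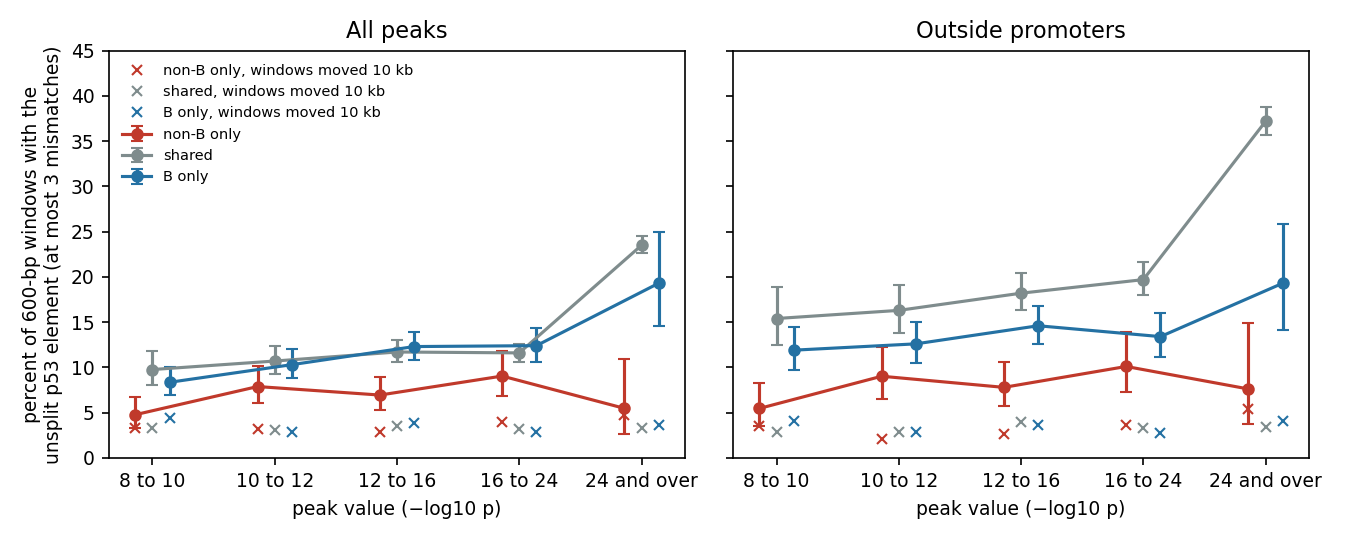
Percent of 600-bp windows around peak midpoints with the unsplit p53 response element at no more than 3 mismatches (y axis) by peak value (x axis), for all peaks and for peaks outside promoters. Points are shares with Wilson 95% intervals, and crosses are the same windows moved 10 kb. Non-B-only peaks stay between 4.77% and 9.04% in the left panel while shared peaks reach 23.5%.

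The element with a spacer of 1 to 15 bases and at most 1 mismatch was in 2.40% (1.88 to 3.05) of members and 2.17% of their moved windows, against 4.26% (3.96 to 4.58) of shared and 3.56% (3.10 to 4.07) of B-only peaks. At least 1 decamer without a mismatch was in 23.4% (21.8 to 25.1) of members and 19% of moved windows, against 29.4% (28.7 to 30.1) of shared peaks and 25.7% (24.6 to 26.8) of B-only peaks.

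The best elements of the set came largely from repeated sequence. Of the 8 members with no mismatch, 6 had median copy numbers of 10 or more for their 31-base words, and 4 lay 121 to 232 bp from an irradiated B cell peak. The element itself lay inside the member peak in 2 of the 8 and overlapped an irradiated B cell peak in 2. Of the 31 members with 1 mismatch, 11 were multi-copy and 27 held the element inside the peak. Over the whole set only 44 of 2669 members (1.65%) were multi-copy, against 3.33% of shared and 1.74% of B-only peaks. Among single-copy members the element share was 6.32% (5.46 to 7.32), and elements with at most 1 mismatch were in 0.838% (0.554 to 1.27), against 4.66% (4.34 to 4.99) of single-copy shared peaks. The 2 single-copy members with a perfect element had values of 12.7 and 9.46 and lay 849 kb and 39.3 kb from the nearest irradiated B cell peak.

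The same windows were searched on both strands for 16 short motifs of other factors. Outside promoters RUNX motifs (TGTGGTT) were in 467 of 1623 members, or 28.8% (26.6 to 31), against 19.8% (18.9 to 20.7) of shared and 15.7% (14.6 to 17.0) of B-only peaks. Moved windows gave 13.3%, 15.4% and 13.8%. TCF/LEF motifs (CTTTGAA) were in 20.5% (18.6 to 22.5) of members, 18.3% (17.5 to 19.2) of shared and 14.2% (13.1 to 15.4) of B-only peaks, with moved windows between 13.1% and 13.8%. For TCF/LEF the member and shared intervals overlapped and the member and B-only intervals did not. Among single-copy peaks, a choice made after the data had been seen, the TCF/LEF share was 19.8% (18 to 21.9) of members and 14.9% of shared peaks, which lies outside the member interval.

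PU.1 and OCT motifs stood in the opposite order. PU.1 motifs (GAGGAAG) were in 25.9% (23.9 to 28.1) of members, 32.8% (31.8 to 33.9) of shared and 36.6% (35.0 to 38.2) of B-only peaks. PU.1 motifs still stood above the moved background in members. Among those over 1 kb from an irradiated B cell peak the share was 26.0%, with 18.3% in moved windows. B-only peaks over 1 kb from an irradiated non-B cell peak gave 37.4% and 20.6%. OCT motifs (ATGCAAA) were in 10.9% (9.48 to 12.5), 14.3% (13.5 to 15) and 15.6% (14.5 to 16.9), and the member share was no higher than the 11.9% of its moved windows. EBF motifs were in 1.60% (1.10 to 2.34), 2.05% (1.76 to 2.39) and 2.76% (2.27 to 3.35), with intervals that overlapped. Within 100 bp of the midpoint the EBF shares were 0.185% (0.0629 to 0.542), 1.0% (0.805 to 1.24) and 1.55% (1.19 to 2.01), and the member interval stood apart from both. ETS motifs (CCGGAAG), which share the letters GGAAG with the PU.1 motif, were in 5.98% (4.92 to 7.24), 4.59% (4.15 to 5.07) and 3.49% (2.94 to 4.15), so that members differed beyond the intervals from B-only but not from shared peaks. GATA motifs (AGATAAG) were in 9.55% (8.21 to 11.1), 7.55% (6.99 to 8.15) and 8.02% (7.17 to 8.96), where the member interval overlapped that of B-only peaks. Within 100 bp it did not, at 4.13% (3.26 to 5.21) of members and 2.17% (1.74 to 2.70) of B-only peaks. AP-1 motifs (TGANTCA) were in 21.9% (19.9 to 23.9) of members and 23.1% (22.2 to 24.1) of shared peaks, E-boxes (CAGCTG) in 30.7% (28.5 to 33) and 30.7% (29.7 to 31.7), and IRF motifs in 12% (10.5 to 13.6) and 11.5% (10.8 to 12.2), all with overlapping intervals. C/EBP motifs (TTGCNNAA) were in 25.6% (23.6 to 27.8) of members and 22.4% (21.5 to 23.3) of shared peaks, and GC boxes (GGGCGG) in 12.1% (10.6 to 13.8) and 14.9% (14.2 to 15.7). The CCAAT box (CCAAT) was in 49.9% (47.5 to 52.3) of members and 54.8% (53.7 to 55.8) of shared peaks, and NF-kB motifs in 1.11% (0.703 to 1.75) and 2.24% (1.94 to 2.59), both lower in members with intervals that did not overlap. CRE motifs (TGACGTCA) were in 0.739% (0.423 to 1.29) of members and 0.788% (0.616 to 1.01) of shared peaks, and NRF1 motifs in 0.924% (0.561 to 1.52) and 0.825% (0.649 to 1.05).

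**Figure D3:**
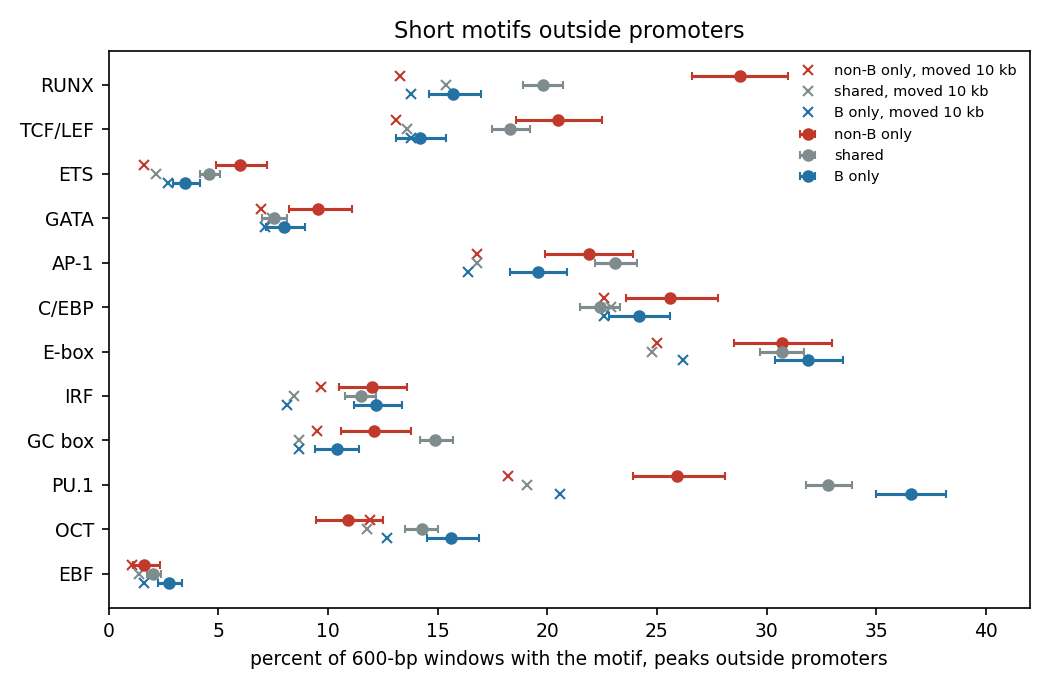
Percent of 600-bp windows of peaks outside promoters (x axis) with each plotted short motif (y axis). The CCAAT box, NF-kB, CRE and NRF1 motifs are not shown. Points are shares with Wilson 95% intervals for 1623 non-B-only, 7996 shared and 3553 B-only peaks, and crosses are the same windows moved 10 kb. RUNX stands at 28.8% in the non-B-only peaks and 15.7% in the B-only peaks, and PU.1 at 25.9% and 36.6%.

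RUNX motifs were also counted by value. Outside promoters they were in 27.9% (23.5 to 32.7) of members with values from 8 to 10, 25.7% from 10 to 12, 28.6% from 12 to 16, 29.8% from 16 to 24 and 42.4% (32.8 to 52.6) of the 92 members of 24 or over, where the moved windows gave 5.43%. The last interval overlapped that of the range below it, 25.1 to 34.9. In the top range shared peaks gave 20.6% (19.3 to 21.9) and 24 of 171 B-only peaks had the motif, and shared peaks no higher than the highest member gave 21.4% (19.7 to 23.3). PU.1 motifs were in 19.6% (12.7 to 28.8) of these 92 members, against 31.8% (30.3 to 33.4) of shared and 36.3% (29.4 to 43.7) of B-only peaks. Moved windows of these members gave 18.5%. The RUNX share was 29.2% (26.9 to 31.6) among members outside promoters that lay over 1 kb from an irradiated B cell peak.

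At promoters the differences were of another kind. RUNX motifs were in 16.5% (14.4 to 18.9) of 1046 members, 11.6% (10.9 to 12.3) of shared and 13.6% (12.2 to 15.2) of B-only peaks, with 9.53% in equal windows around all annotated transcript starts. Windows moved 10 kb from the promoter members gave 15.8%, so the members stood near their own moved background. GC boxes were in 52.0% (49.0 to 55.0) of members, 61.9% (60.9 to 62.9) of shared and 41.0% (38.9 to 43.2) of B-only peaks, ETS motifs in 16.8% (14.7 to 19.2), 25.1% (24.2 to 26.0) and 11.2% (9.92 to 12.6), and NRF1 motifs in 8.41% (6.88 to 10.3), 12.7% (12.1 to 13.5) and 3.29% (2.60 to 4.15). Non-B-only peaks at promoters thus stood between the shared and the B-only peaks for these motifs of CpG-rich starts. Median GC content was 54.3%, 57.3% and 51.8% for members, shared and B-only peaks at promoters and 45.8%, 46.3% and 46.2% outside them.

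T cell genes held non-B-only peaks at a higher share than protein-coding genes at large. A member lay within the gene or up to 5 kb upstream of it for 33 of 50 listed T cell genes, or 66.0% (52.2 to 77.6), against 7.14% of all 22238 protein-coding genes. Of 39 annotated B cell genes 5 had a member (12.8%, 5.60 to 26.7). B-only peaks were at 12 of the T cell genes (24%, 14.3 to 37.4) and at 25 of the B cell genes (64.1%, 48.4 to 77.3), against a background of 13.1%. The T cell genes spanned a median of 36.2 kb with the upstream stretch, the B cell genes 28.8 kb and all genes 20.5 kb. Any irradiated non-B cell peak of value 8 or more was at 40 of the 50 T cell genes, against 42.4% of all protein-coding genes. Any such irradiated B cell peak was at 29 of the T cell genes, against 43.8%. The B cell genes also had irradiated non-B cell peaks of that value, at 36 of 39. Fewer genes had such a peak in the NK cell (5 of 18), myeloid (11 of 40) and erythroid and megakaryocyte (6 of 25) lists. A gene without such a peak cannot have a member, so the member shares of the lists are not compared as cell type preference. Lists of other cell types of the non-B fraction had intervals that included the background of 7.14%: 3 of 18 NK cell genes (16.7%, 5.84 to 39.2), 3 of 40 myeloid genes (7.50%, 2.58 to 19.9) and 1 of 25 erythroid and megakaryocyte genes (4.00%, 0.710 to 19.5). The lists were chosen with earlier results of these data known, and the counts are descriptions of 1 library against another.

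**Figure D4:**
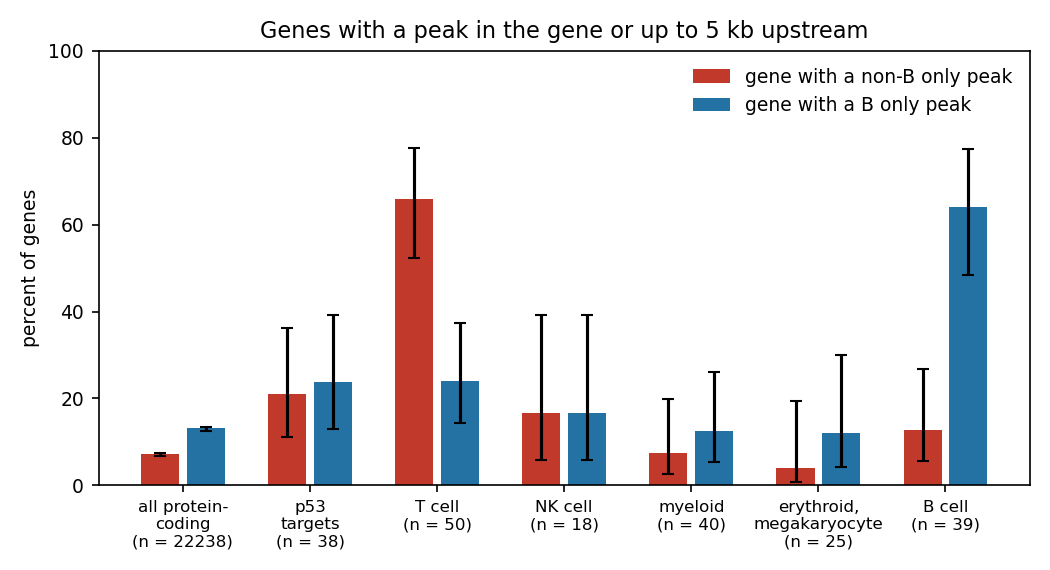
Percent of the genes of each list (y axis) with a non-B-only or a B-only peak within the gene or up to 5 kb upstream, with Wilson 95% intervals. The T cell list stands at 66.0% for non-B-only and 24% for B-only peaks and the B cell list at 12.8% and 64.1%.

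The 33 T cell genes held 71 different members with values from 8.36 to 32.4 and a median of 13.1. By role they were 16 of 24 surface proteins, 9 of 13 signalling proteins and 8 of 13 transcription factors. Of the 71 members 25 were in promoter windows and 1 had a p53 element with at most 3 mismatches, in an Ets1 intron at a value of 24. RUNX motifs were in 19 of the 71 (26.8%, 17.9 to 38.1), an interval that included the 24% of all members.

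Among the surface proteins, Cd28, the main costimulatory receptor of T cells, had a peak of 24.1 at 26 bp from an annotated start and one of 28.8 in an intron 12 kb downstream, and none of the other 4 lists had a peak at the gene. Icos, a related costimulator, had a peak of 28.6 over its start and an intronic peak of 12.1. Ctla4, the inhibitory member of that family, had one of 18.4 beside a start. All 3 genes lie in 1 stretch of chromosome 1 and none had an irradiated B cell peak. Cd96, a receptor of T and NK cells, had a peak of 31.5 over its start. Cd3d and Cd3g, which encode chains of the T cell receptor complex from a shared start region, counted the same 2 members, of 16.2 and 13.6. Cd247, which encodes the zeta chain, had 3 intronic members of 8.36, 10.2 and 8.36. Cd27 had members of 15.2 and 9.80 and Thy1 had 1 of 15.2.

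Among the signalling proteins, Lck, the kinase that starts T cell receptor signalling, had members of 11.8, 11.2 and 14.2, the last 25 bp from a start. Zap70, the kinase that acts next, had one of 15.2 at its start and no irradiated B cell peak. Lcp2, which encodes the adaptor SLP-76, had members of 11.2 and 32.4, and Prkcq, which encodes the kinase PKC-theta, had 6 from 10.2 to 24.6. Cblb, an E3 ligase that restrains T cell receptor signalling, had 5 from 10.1 to 14.2.

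Among the transcription factors, Lef1 had 6 members, Ets1 4, Bcl11b 3, Tox 3, and Tcf7, Gata3, Satb1 and Rora 1 each. Each of these genes also had a higher irradiated non-B cell peak outside the set: at Lef1 the highest irradiated non-B cell peak was 52.93 and the highest member 26.5, and at Bcl11b 143.84 and 19.5. Of the 33 genes 11 had a member and no irradiated B cell peak of value 8 or more: Cd3g, Cd6, Cd28, Zap70, Thy1, Icos, Ctla4, Cd27, Sh2d1a, Cd96 and Cd226. Members lack overlap with B cell peaks by the rule. The same share over all 1587 protein-coding genes with a member is not given here. The count is therefore not read as a trait of T cell genes. Of the 17 T cell genes without a member, 10 had no irradiated non-B cell peak of that value, among them the defining genes Cd3e, Cd4, Cd8a and Cd8b1, and 7 had only peaks that overlapped another list.

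Several genes held more than 1 non-B-only peak. Of the 22238 protein-coding genes 1587 (7.14%) held a member. Among these, 284 held 2 or more members, 91 held 3 or more and 21 held 5 or more. The most, 13 each, lay in Prkch, which encodes the kinase PKC-eta, and in Ubac2. Gm20388 had 12, but it is a gene model of 4435 kb that spans many genes and also held 28 B-only and 62 shared peaks. Inpp4b, a phosphoinositide phosphatase gene, held 8, Prex1 7, and Fyb, Prkcq and Lef1 6 each, the number also reached by Thada, Ikzf1, Akap13 and Pik3r1. Prkch had 1 B-only peak beside its 13 members, and Prex1 and Fyb had none beside 7 and 6. Thada and Pik3r1 also had none, Prkcq had 1, Lef1 2, Ubac2 and Inpp4b 3 each, and Ikzf1 and Akap13 5 each. All these genes also held shared peaks, where B cells had a peak too. There were 12 in Akap13, 9 in Ubac2, 7 each in Inpp4b and Ikzf1, 6 in Prex1 and 5 in Pik3r1. Lef1 had 4 shared peaks, Prkch 3, Prkcq and Thada 2 each and Fyb 1. Gm20388 apart, these genes ran from 83.5 kb for Fyb to 782 kb for Inpp4b, and the counts are not set against length. In Prkch, Inpp4b, Prex1, Fyb, Prkcq and Lef1 no member had a p53 element with at most 3 mismatches, and in Ubac2 1 did.

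Fyb encodes the adaptor ADAP, which links the T cell receptor to integrins. Its gene held members of 9.84 to 44.6, and with those upstream of it 8 members lay in 57.0 kb, with 1 shared peak and no B-only peak between them. Around Prkcq 7 members lay in 58.8 kb with 2 shared peaks. Such runs, of at least 4 members with no gap over 20 kb, were defined after the data had been seen. There were 33 of them, with 159 members (5.96%, 5.12 to 6.92). B-only peaks formed 90 such runs with 418 peaks (7.43%, 6.78 to 8.15), so runs were not found in the set alone. The 2 shares do not compare clustering, since the B-only class held 5623 peaks against 2669 and denser peaks form more runs. Peaks of 1 run are also not independent, which these intervals ignore. One run between genes on chromosome 15, chr15:59943356-59968852, held 5 members of 21.6 to 43.6 with a median of 37.2, against 12.1 for the whole set, and 3 of the 15 highest members lay in it. This run also held 1 shared peak.

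**Figure D5:**
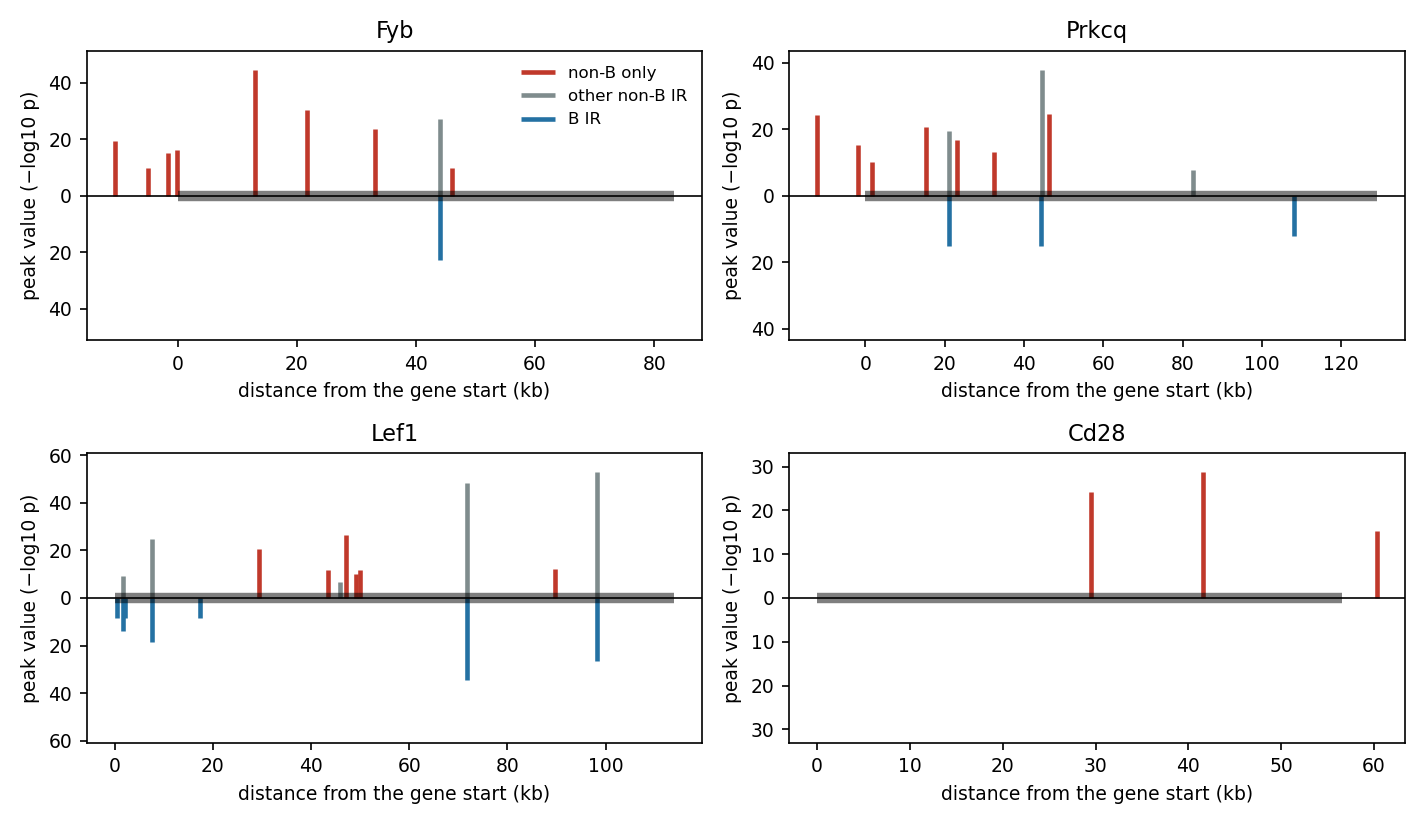
Peak values (y axis, −log10 p) against distance from the gene start in kb (x axis) at Fyb, Prkcq, Lef1 and Cd28, with the gene as a grey bar. Irradiated non-B cell peaks point up, in red where they are non-B-only, and irradiated B cell peaks point down. Fyb shows a single B cell peak, of 22.8, and Cd28 shows none.

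The 15 highest members ranged from 37.2 to 46.0, and 9 of their windows held a RUNX motif. The highest, at 46.0, were an intergenic peak at chr6:140656617-140657059 and a peak in a UTR of Tnrc6b, a gene of microRNA silencing. The Fyb intron followed at 44.6, then a peak 8.25 kb upstream of Tnfrsf14, the lymphocyte receptor HVEM, at 43.9, and the peaks of the chromosome 15 run at 43.6, 42.4 and 37.2. Introns of Arhgef3 (41.9), Stat5b (41.0), Prrc2c (40.6), Itpk1 (39.2), Sh2d3c (39.2) and Smad3 (37.9) held others, and the last of them lay near the start of Gm17425 (40.5) and beyond a gene, nearest to Peli1 (37.2). Stat5b carries signals of interleukin-2 and interleukin-7 receptors and Smad3 those of TGF-beta. The Smad3, Stat5b and Sh2d3c peaks lay 286 bp, 1.12 kb and 1.44 kb from an irradiated B cell peak, and the Tnfrsf14 peak 3.14 kb. The peaks of the chromosome 15 run at 43.6, 42.4 and 37.2 lay 14.4, 1.97 and 4.25 kb from one. The other peaks lay 7.21 to 84.6 kb away. None of the 15 windows had a p53 element with at most 3 mismatches.

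At promoters, 1000 protein-coding genes (4.50%) had a member in their promoter window. Of these, 495 (49.5%, 46.4 to 52.6) also had an irradiated B cell peak there, against 39.6% of all protein-coding genes, and 501 had no peak of any other list. In the mirror set 1777 genes had a B-only peak in the window, and 710 of them had no irradiated non-B cell peak there. Within 500 bp of a protein-coding start lay 588 members, and 353 of them were at genes whose promoters had no peak of another list. Members overlap no other list by the rule, so these counts are not read as a trait of the members. The highest of the 353 were at Gm17425 (40.5), Cd96 (31.5), Icos (28.6), 0610037L13Rik (27.7), Med15 (26.8), Lmtk2 (26.1), Gm17674 (24.6), 4632411B12Rik (24.5), Cd28 (24.1) and Sbf1 (24.1). Cd96, Icos and Cd28 are genes of the T cell list, and Med15, a subunit of Mediator, is used by every cell.

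The other lists together held fewer members than the T cell list, with 10 at B cell genes, 9 at p53 target genes, 3 each at NK cell and myeloid genes and 2 at an erythroid and megakaryocyte gene. Of the NK cell genes, Fasl, the death receptor ligand that cytotoxic T cells also make, had a peak of 23.0 at its start, Il2rb one of 11.2 and Klrd1 one of 10.5. Of the myeloid genes, Cd68 had a peak of 15.2 at its start, Csf2ra one of 10.9, and Hmox1, the stress-induced haem oxygenase, one of 10.2 at its start whose window held a p53 element with 1 mismatch. Itgb3, the integrin beta chain of platelets, had members of 13.1 and 12.1 beside 4 shared peaks. The 5 B cell genes with a member included Ikzf3 (21.8), Bach2 (20.6 and 13.4 for the highest of 5) and Pik3ap1 (14.5), which also held 6 to 12 shared peaks each.

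Of 38 known p53 target genes 8 had a member (21.1%, 11.1 to 36.3), above the background of 7.14%. With a minimum value of 12 there were 3 (7.89%, 2.72 to 20.8) against a background of 4.03%, which that interval includes. Of the 38 genes 9 had a B-only peak (23.7%). An irradiated non-B cell peak of value 8 or more was at 33 of the 38 (86.8%), against 42.4% of all protein-coding genes. The 9 members had a median value of 9.84. The highest, of 22.6, was counted for Trp73 but lay 11 bp from the start of Wdr8, and it was the only one of the 9 with a p53 element at no more than 3 mismatches. Polk, which encodes a translesion polymerase, had an intronic member of 20.2 and Xpc, a nucleotide excision repair gene, one of 15.2. An Apaf1 member of 10.2 lay at the Ikbip start. Bbc3, which encodes PUMA, had a member of 8.36 beside a peak of 488.40. Each of these 8 genes had a higher irradiated non-B cell peak that was not in the set.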

How the data were processed

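The series holds 6 libraries in as many groups, 5 of p53 ChIP-seq and 1 input from irradiated B cells. The authors aligned reads with BWA (0.6.2 per the submitters' processing notes) to mm9, called peaks with MACS and deposited 1 list for each of the 5 p53 libraries. Column 5 of each deposited list was taken as the −log10 of the peak's p-value, from the range of its values, since the lists do not name it and reach below the stated threshold. It is a value that also depends on library depth, so that values of different lists were not compared as binding levels. Members and B-only peaks of the same value range are set side by side with that limit. The lists hold no read counts, so the depth is unknown and gives no interval for a peak value. No peak list of the input was used here.

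The members, gene lists and motifs were chosen with earlier results of these data known. Overlap meant 1 shared base. Windows of 300 bp on either side of the midpoint were read from NCBIM37 (mm9), since the lists give no summits, and gene positions from GENCODE vM1, with 1-based coordinates. The p53 response element (2 adjoining decamers, invariant C and G required) was counted at up to 3 mismatches, and windows moved 10 kb served as background. Copy number was the median count in the genome of 31-base words around the midpoint, used because the reference carries no repeat masking. Shares have Wilson 95% intervals, which cover counting error alone. With 1 library per group no test between conditions was run. Genes and regions were named by fixed rules: the 15 highest members, the 8 with fewest element mismatches, up to 4 members per gene list, the 8 genes with most members (ties on the last place are named too), the 3 members nearest the floor of 8 and 3 peaks below it, and the 10 highest start-site members at genes with no other peak. T cell genes are also named by role, some of them not reported here, and runs of members and antigen receptor loci were added after the data had been seen. Overlap, element, motif, copy number and promoter code was tested on simulated data. Python 3.11.15, numpy 2.4.6, pandas 2.3.3, scipy 1.17.1 and numba 0.67.0 were used.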

Additional observations from a re-analysis of the deposited data

How the results depend on the processing

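Each list is 1 library, so no library could be left out. No paired analysis was possible because the groups have 1 sample each and the labels carry no replicate numbers. Of 87 alternative values 55 stayed within the main interval or within 1.5 times the main count. The number of members, 2669, fell to 1401 with a minimum value of 12 and to 294 with 20. The promoter share, 39.2%, was 27.5% within 1 kb of a start, 35.3% for protein-coding genes, 37.2% with a minimum value of 12 and 35.9% when other lists within 1000 bp counted as shared. The element share, 7.01%, was 3.18% with at most 2 mismatches, 14.7% with at most 4, 4.46% within 100 bp of the midpoint and 4.76% inside the peak. Both shares stayed below those of shared peaks, and the element share below that of B-only peaks, under each of these settings. Within 100 bp of the midpoint the member shares outside promoters were 19.4% for RUNX, 9.92% for TCF/LEF, 3.20% for ETS, 4.13% for GATA, 13.7% for PU.1, 3.57% for OCT, 0.185% for EBF, 9% for AP-1, 10.6% for C/EBP, 5.55% for IRF, 13% for the E-box, 5.42% for the GC box, 0.493% for NRF1, 16.8% for the CCAAT box and 0.370% for CRE. Within 100 bp the member interval separated from both other classes for EBF and from B-only peaks for GATA, and came to overlap that of shared peaks for C/EBP, the GC box and NF-kB. The order of members against shared and B-only peaks stayed the same in 53 of 59 such comparisons, and the exceptions were AP-1, E-box, NRF1 and CRE shares. With 50 kb on either side the p53 target count rose from 8 to 17, NK cell from 3 to 7, myeloid from 3 to 10 and erythroid and megakaryocyte from 1 to 5, while the share over all genes rose from 7.14% to 20.2%. The NK cell share was then 38.9% (20.3 to 61.4), just past that background, and the myeloid (14.2 to 40.2) and erythroid and megakaryocyte (8.86 to 39.1) intervals included it. With a minimum value of 12 the p53 target count fell to 3 and the NK cell and myeloid counts to 1 each, with 4.03% over all genes. The p53 target and NK cell intervals then included that background. The T cell count, 33, was 41 and 25 under these settings.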

Other observations

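The antigen receptor loci were counted after the data had been seen. The light chain loci of B cells held no non-B-only peak, with 25 B-only peaks in Igk and 5 in Igl. The T cell receptor loci held 2 non-B-only peaks in Tcra and Tcrd and 1 in Tcrb, with no B-only peak in either, and none in Tcrg, which had 1 B-only peak. Igh held 6 non-B-only beside 9 B-only peaks. Shared peaks, which are also irradiated non-B cell peaks, numbered 10 in Igk, 5 in Igl and 9 in Igh. Tcrb had 3 shared peaks, the Tcra and Tcrd locus 1 and Tcrg 1. No share over all peaks is set beside these small counts, so they are not read as a trait of the loci. The loci span 174 to 3171 kb.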
